A study of Homo sapiens with 6 samples.

Results

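The laminin chain genes of LX-2 cells were examined after treatment with BMP9. LX-2 is an established human line of stellate cells, the liver cells that deposit matrix in fibrosis, and BMP9 is the TGF-beta family ligand encoded by GDF2. The list held 9 genes (LAMA1, LAMA2, LAMA3, LAMA4, LAMA5, LAMB1, LAMB2, LAMC1 and LAMC3), and its members were taken as every probe set that the array's annotation assigns to exactly 1 of them. This gave 17 of the 49395 probe sets in the table, for 8 genes: 5 probe sets for LAMC1, 4 for LAMA4, 2 each for LAMA5 and LAMB1, and 1 each for LAMA1, LAMA2, LAMB2 and LAMC3. LAMA3 is not analysed here. All cells were LX-2 cultures kept without serum for 12 h. The BMP9 group of 3 arrays then received recombinant human BMP9 at 50 ng/ml for 24 h, and the control group of 3 arrays received 0 ng/ml for the same time. The samples of a group are labelled as biological replicates, with no word on whether they were grown apart, so all p-values here reflect only the spread among these 6 samples, which may be technical. LX-2 is a single line, and its RNA was measured in bulk, so fewer cells expressing a gene and less RNA per cell cannot be told apart.

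Laminins are trimers of 1 alpha, 1 beta and 1 gamma chain, and many of them, though not all, polymerise in a basement membrane. The alpha chain carries the globular domains that bind integrins and dystroglycan on cells, and the gamma chain encoded by LAMC1 binds nidogen, which links the laminin network to collagen IV. In the liver, the space between hepatocytes and sinusoids normally holds little basement membrane, and laminin accumulates there in fibrosis, with stellate cells among its sources.

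The promoters of LAMA4, LAMC1 and LAMB1 are shown because LAMA4 and LAMC1 had the largest laminin differences below and because their products join the LAMB1 product in 1 trimer. Each runs 5′ to 3′ on the gene's strand, from 250 bases before the annotated start to 50 after it, as given by RefSeq on GRCh38.p14. Capitals mark CAGAC, a box that SMAD proteins bind and that reads GTCTG when it lies on the opposite strand, and also GGCGCC, a GC-rich SMAD site of BMP-responsive genes.
LAMA4 (chr6:112254518-112254817, minus strand): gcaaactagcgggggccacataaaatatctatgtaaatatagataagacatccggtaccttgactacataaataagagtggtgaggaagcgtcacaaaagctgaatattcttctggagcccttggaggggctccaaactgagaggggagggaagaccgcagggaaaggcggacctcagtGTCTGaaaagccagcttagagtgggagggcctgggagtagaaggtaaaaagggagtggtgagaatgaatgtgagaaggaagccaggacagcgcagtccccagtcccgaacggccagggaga
LAMC1 (chr1:183023170-183023469, plus strand): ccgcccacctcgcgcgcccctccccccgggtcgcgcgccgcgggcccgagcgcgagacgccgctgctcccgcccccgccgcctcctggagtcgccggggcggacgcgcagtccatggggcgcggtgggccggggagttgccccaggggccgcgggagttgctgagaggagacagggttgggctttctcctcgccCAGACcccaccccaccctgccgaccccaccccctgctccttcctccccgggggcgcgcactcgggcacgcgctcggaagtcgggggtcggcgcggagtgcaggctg
LAMB1 (chr7:108003112-108003411, minus strand): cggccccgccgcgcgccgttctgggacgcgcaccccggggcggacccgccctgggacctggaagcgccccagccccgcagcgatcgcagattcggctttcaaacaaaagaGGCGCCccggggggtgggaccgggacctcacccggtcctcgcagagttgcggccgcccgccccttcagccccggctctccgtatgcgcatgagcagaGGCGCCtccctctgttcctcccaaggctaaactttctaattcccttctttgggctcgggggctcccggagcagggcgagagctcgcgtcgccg

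LAMA4 and LAMC1 had 1 CAGAC match each in these windows and 0 GGCGCC matches, and LAMB1 had 2 GGCGCC matches and 0 CAGAC matches. Among 35116 promoters of the same length, 45.3% held CAGAC and 19.2% held GGCGCC on either strand, so both motifs are common. The E-box CANNTG, bound by the basic helix-loop-helix factors that ID proteins restrain, had 0 matches in all 3 printed windows and was in 68.7% of promoters. None of the matches overlapped another. The LAMA4 window was 51.3% G and C, against 79.0% in LAMC1, 71.0% in LAMB1 and a median of 58.7% over all promoters. RefSeq's table held a promoter for 7 of the 9 listed genes. A match is a run of letters and not a measured binding site.

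Each array gave 1 RMA log2 value per probe set. RMA (robust multi-array average) subtracts background, sets the arrays to a common distribution and summarises the probes of a probe set. Array medians lay between 3.55 and 3.57 over the 6 arrays, and no 2 arrays shared more than 0.00405% of their values. The treatment check showed SMAD6, an inhibitory SMAD induced by BMP signalling, at 8.99 ± 0.078 with BMP9 and 5.97 ± 0.17 in control (SD, n = 3 each), and ID3 at 8.84 ± 0.17 with BMP9 and 7.21 ± 0.19 in control. The brightest ID1 probe set did not pass (difference 0.14), while another ID1 probe set was higher by 3.21. The arrays' own control probes differed between the groups. The mean of 24 poly-A spike-in probe sets was 5.39 to 5.83 on BMP9 arrays and 6.09 to 6.22 on control arrays, and that of 18 hybridisation probe sets was 9.87 to 10.04 on BMP9 arrays and 10.12 to 10.20 on control arrays. Scaling the arrays to these probes adds a shift to every gene, and the median difference of all genes, 0.014 as deposited, became 0.55 with the poly-A probes and 0.23 with the hybridisation probes. The part of this offset in the results was not tested beyond those scalings. Of 14 stellate and myofibroblast markers 0 were called by limma over all genes, against 0.684% of all genes. COL1A1 stood at 9.71 to 9.90 on BMP9 arrays and 9.61 to 9.91 on control arrays, and LUM was near the dimmest background probes at 1.73 to 2.17 over the 6 arrays. In 3 of the 14 the groups did not overlap, against 8.49% of all genes with BMP9 lower and 10.3% with BMP9 higher. VIM, the brightest, averaged 11.25 with BMP9 and 11.62 in control (difference -0.37, limma adjusted p = 0.0786). DCN averaged 3.90 with BMP9 and 4.64 in control (-0.74, limma adjusted p = 0.194), and HAND2 5.33 with BMP9 and 5.02 in control (0.30, limma adjusted p = 0.121).

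LAMA4 read lower in BMP9-treated cells in the brightest of its 4 probe sets, by 0.53 on the log2 scale. Its other 3 probe sets differed by -0.026 to 0.027, with overlapping groups. LAMC1 differed by -0.44, which came short of the threshold, and the other 6 measured chain genes differed by -0.32 to 0.028 without passing. Of 8 chain genes, 1 was called lower and 0 higher by limma at a Benjamini-Hochberg adjusted p under 0.05 over all 18132 genes, where each gene stood for its brightest probe set. Over all genes 0.684% were called, 0.452% lower and 0.232% higher. With each probe set tested on its own over 44988, 1 of the 17 laminin probe sets was called lower and 0 higher, against 0.436% called over all (0.302% lower, 0.133% higher). The differences were negative for 7 of the 8 genes, with a median of -0.12, and for 45.3% of all genes, whose median was 0.014. The groups did not overlap, with BMP9 lower, in 5 of 17 laminin probe sets against 8.22% of all probe sets, and in 3 of 8 laminin genes against 8.49% of all genes. Of those 5 probe sets 3 are of LAMC1, and LAMB2, 1 of those 3 genes, differed by only -0.080 (limma adjusted p = 0.688). With BMP9 higher, the count without overlap was 0 of 17 probe sets against 9.07% of all, and 0 of 8 genes against 10.3% of all. These directions hold on the deposited scale, and poly-A scaling turned the differences of LAMA1, LAMA2, LAMA4, LAMB1, LAMB2, LAMC1 and LAMC3 positive.

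**Figure D1:**
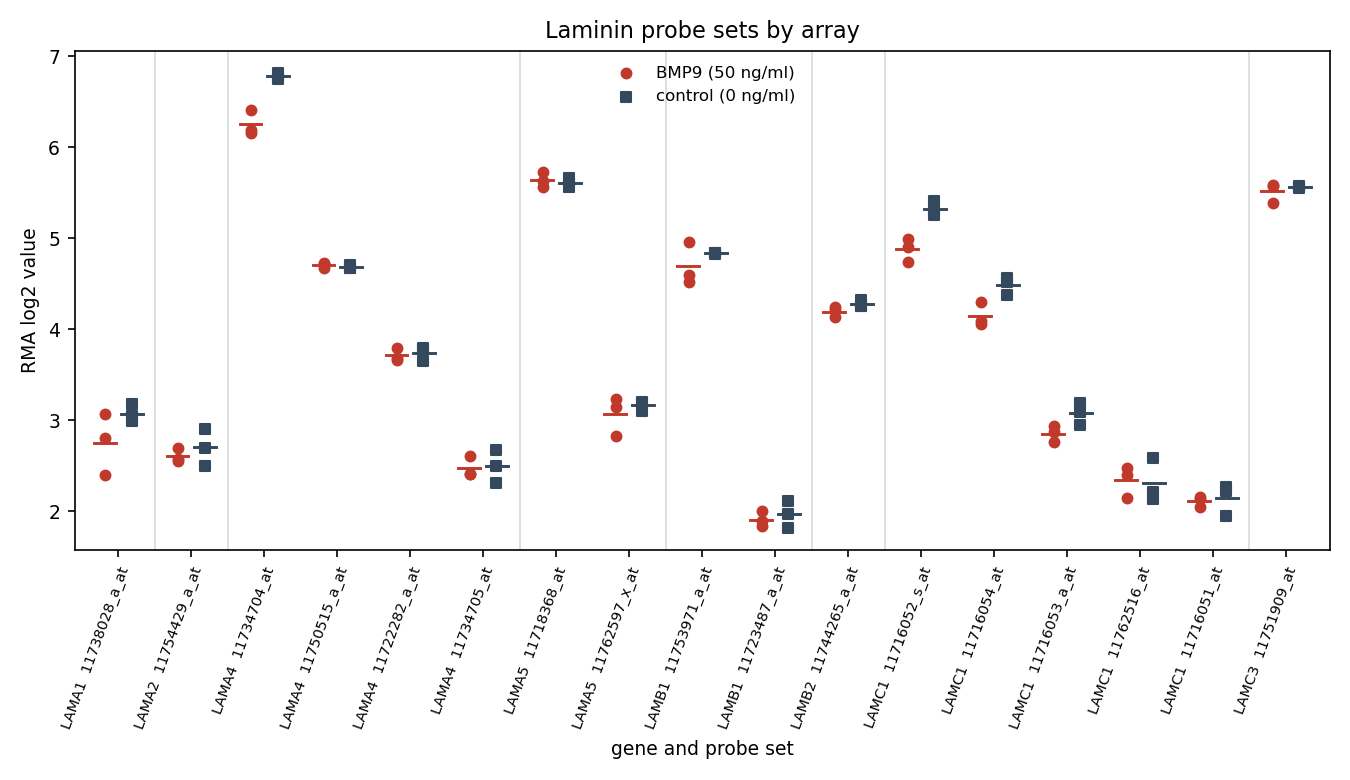
RMA log2 values (vertical axis) of the 17 laminin probe sets on the 3 BMP9 arrays (red circles, left) and the 3 control arrays (dark squares, right), with a line at each group's mean; grey lines part the genes. The groups separate most in LAMA4 probe set 11734704_at, at 6.16 to 6.41 with BMP9 and 6.75 to 6.81 in control, and levels of different probe sets are not comparable.

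LAMA4 encodes the alpha4 chain, a short alpha chain made mainly by mesenchymal and endothelial cells. Probe set 11734704_at read 6.41, 6.19 and 6.16 on the BMP9 arrays and 6.81, 6.78 and 6.75 on the control arrays. Every BMP9 array lay below every control array, and the BMP9 arrays spread more. The means were 6.25 ± 0.14 with BMP9 and 6.78 ± 0.028 in control (SD, n = 3 each), a log2 difference of -0.53 (SE 0.085, 95% interval -0.72 to -0.34), which is 1.44-fold lower (limma adjusted p = 0.0216, rank 78 by p of 18132 genes). The call was kept without BMP9 replicate 1 (adjusted p = 0.0158) and lost without any other single array, where the adjusted p lay between 0.0715 and 0.113 and the difference between -0.54 and -0.48.

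The other LAMA4 probe sets did not move with it. Probe set 11750515_a_at read 4.73, 4.68 and 4.72 with BMP9 and 4.70, 4.67 and 4.67 in control, a difference of 0.027 (95% interval -0.14 to 0.19). Its interval excluded the difference of the brightest probe set. Probe set 11722282_a_at averaged 3.71 ± 0.068 with BMP9 and 3.74 ± 0.080 in control, and 11734705_at 2.47 ± 0.11 with BMP9 and 2.49 ± 0.18 in control (SD, n = 3 each), with overlapping groups in both. Averaging the 4 probe sets gave -0.14 (limma adjusted p = 0.367), so the LAMA4 call rests on 1 probe set. The sources used here give neither the position of the probes in the transcript nor whether the dimmer probe sets lie above background.

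LAMC1 encodes the gamma1 chain, the gamma chain of most laminin trimers. Its brightest probe set, 11716052_s_at, read 4.91, 4.74 and 4.99 on the BMP9 arrays and 5.41, 5.31 and 5.25 on the control arrays, with no overlap. The means were 4.88 ± 0.13 with BMP9 and 5.32 ± 0.081 in control (SD, n = 3 each), a difference of -0.44 (SE 0.087, 95% interval -0.64 to -0.25) that missed the threshold over all genes (limma adjusted p = 0.0582, rank 146). It passed, in the same direction, with array medians centred (adjusted p = 0.0489), with quantile normalisation (0.0494), with a minimum mean log2 value of 5 (0.0106) and with an intensity trend in the prior (0.0264). It did not pass in the other settings: the difference was -0.20 (0.249) with the mean over the gene's probe sets, and -0.34 without probe sets ending in _s_at and _x_at (0.170) or also _a_at (0.293). Leaving out those types drops 11716052_s_at, and the -0.34 is then the value of 11716054_at, described below. For 11716052_s_at the adjusted p was 0.0960 with the replicate number as a block. Leaving out 1 array gave it a difference of -0.50 to -0.37 with an adjusted p of 0.103 to 0.195. With hybridisation control scaling its difference was -0.23 (0.0864), and with poly-A control scaling 0.089 (0.600).

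LAMC1 differed from LAMA4 in that further probe sets leaned the same way. Probe set 11716054_at read 4.05, 4.30 and 4.08 with BMP9 and 4.56, 4.52 and 4.37 in control. Its difference was -0.34 with an SE of 0.093 (limma adjusted p = 0.202). Probe set 11716053_a_at read 2.93, 2.76 and 2.87 with BMP9 and 3.09, 3.18 and 2.95 in control, a difference of -0.22 (limma adjusted p = 0.386). In both, all BMP9 arrays lay below all control arrays, and neither passed. The 2 dimmest, 11762516_at and 11716051_at, stood at 2.34 ± 0.18 and 2.11 ± 0.059 with BMP9 against 2.31 ± 0.24 and 2.14 ± 0.17 in control (SD, n = 3 each), with overlapping groups. Those levels are like the array's background probes that hold 13 or 14 G and C bases, which read 2.20 to 2.43 over the 6 arrays. The background probes ranged from 1.58 with 3 such bases to 10.13 with 25, so no single level marks background, and the base content of the laminin probes is not stated in the sources used here. Probe sets of 1 gene share its transcripts and are not replicates of the treatment.

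**Figure D2:**
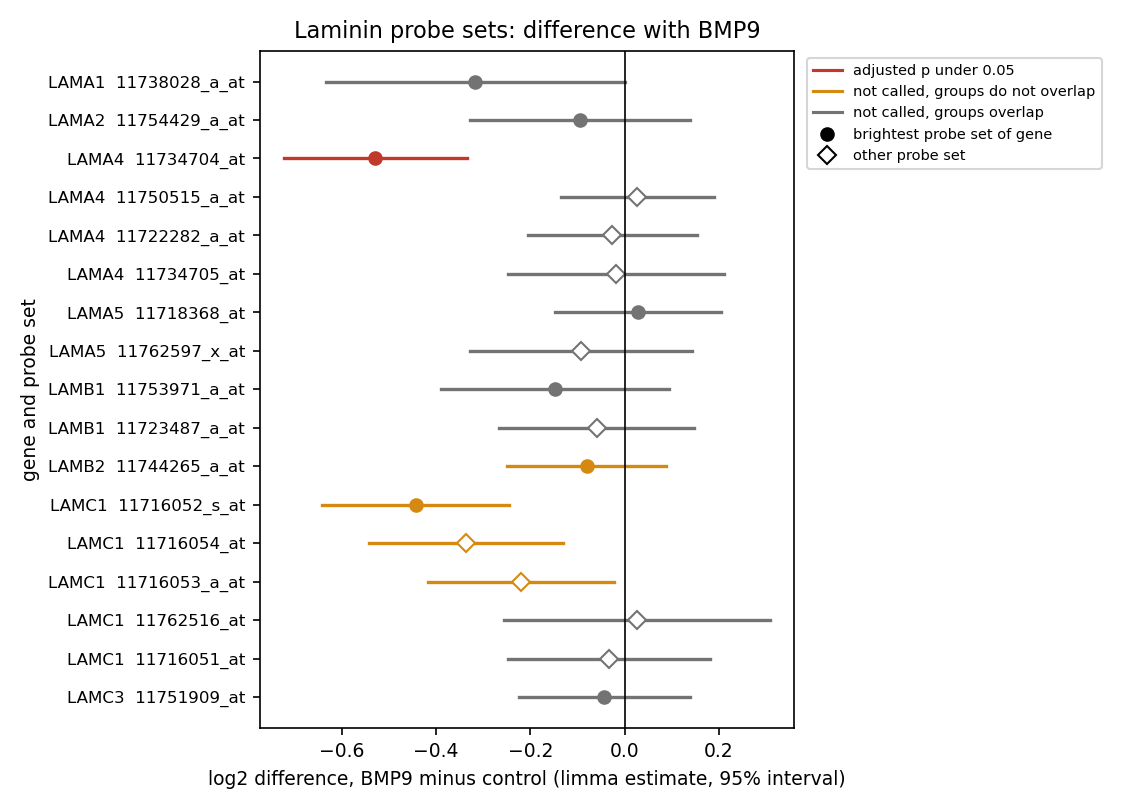
Log2 difference, BMP9 minus control, of each laminin probe set (horizontal axis) with its limma 95% interval; filled circles mark the brightest probe set of a gene, open diamonds its other probe sets, and the colours mark calls and overlap of the groups. LAMA4 11734704_at at -0.53 passed the test, LAMC1 has 3 probe sets between -0.44 and -0.22 with groups that do not overlap, and the other 3 LAMA4 probe sets sit at -0.026 to 0.027.

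The remaining alpha chains gave no call. LAMA5, which encodes the alpha5 chain of most adult basement membranes, read 5.72, 5.57 and 5.63 with BMP9 and 5.66, 5.56 and 5.61 in control in its brighter probe set, 11718368_at. The difference was 0.028 (95% interval -0.14 to 0.20, limma adjusted p = 0.914). The groups overlapped, and the sign turned when the probe sets were averaged (-0.032) or BMP9 replicate 1 was left out (-0.014). Its dimmer probe set, 11762597_x_at, averaged 3.07 ± 0.21 with BMP9 and 3.16 ± 0.059 in control (SD, n = 3 each).

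LAMA1, the alpha chain of early embryonic basement membranes, read 2.80, 2.39 and 3.06 with BMP9 and 3.05, 2.99 and 3.17 in control. The difference of -0.32 (SE 0.14, 95% interval -0.64 to 0.0051, limma adjusted p = 0.396) became -0.14 without BMP9 replicate 2, the lowest array. LAMA2, the alpha chain of muscle and peripheral nerve, read 2.55, 2.69 and 2.57 with BMP9 and 2.91, 2.70 and 2.50 in control, a difference of -0.095 (95% interval -0.33 to 0.14, limma adjusted p = 0.752). Both genes are dim, with overlapping groups, and may lie at background.

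The beta chains gave no call either. LAMB1, the widespread beta1 chain, read 4.52, 4.96 and 4.60 with BMP9 and 4.84, 4.83 and 4.84 in control in probe set 11753971_a_at. BMP9 replicate 2 lay above the control arrays and the other BMP9 arrays below them, for a difference of -0.15 (95% interval -0.39 to 0.095, limma adjusted p = 0.613) that became -0.28 without BMP9 replicate 2 and -0.061 without BMP9 replicate 1. The other LAMB1 probe set averaged 1.91 ± 0.082 with BMP9 and 1.97 ± 0.14 in control (SD, n = 3 each), among the dimmest background probes. LAMB2, the beta2 chain of the kidney filter and the neuromuscular junction, read 4.24, 4.21 and 4.13 with BMP9 and 4.32, 4.25 and 4.25 in control. Its groups did not overlap, but by a margin so narrow that the difference was -0.080 (SE 0.073, limma adjusted p = 0.688).

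LAMC3, the gamma3 chain, read 5.58, 5.57 and 5.39 with BMP9 and 5.57, 5.55 and 5.56 in control. The difference was -0.043 (95% interval -0.22 to 0.13, limma adjusted p = 0.861), and without BMP9 replicate 3, the lowest array, it was 0.019.

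Subtracting 1 chain from another of its class within each array removes any constant log2 offset of the array. LAMA4 minus LAMA5, in the brightest probe sets, was 0.69, 0.62 and 0.53 on the BMP9 arrays and 1.15, 1.22 and 1.14 on the control arrays, a mean difference of -0.56. The groups did not overlap, so relative to the LAMA5 probe set the LAMA4 probe set read lower on every BMP9 array whatever such offset. The LAMA5 probe set itself differed by 0.028, so this pair largely repeats the LAMA4 difference. LAMC1 minus LAMC3 was -0.67, -0.83 and -0.40 with BMP9 and -0.16, -0.24 and -0.31 in control, a mean difference of -0.40, again without overlap. LAMA4 minus LAMA2 differed by -0.43 without overlap, while LAMA4 minus LAMA1 (-0.21) and LAMB1 minus LAMB2 (-0.067) had overlapping groups. These differences were not tested, and with the mean over all probe sets of a gene they shrank to -0.10 for LAMA4 minus LAMA5 and -0.16 for LAMC1 minus LAMC3.

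**Figure D3:**
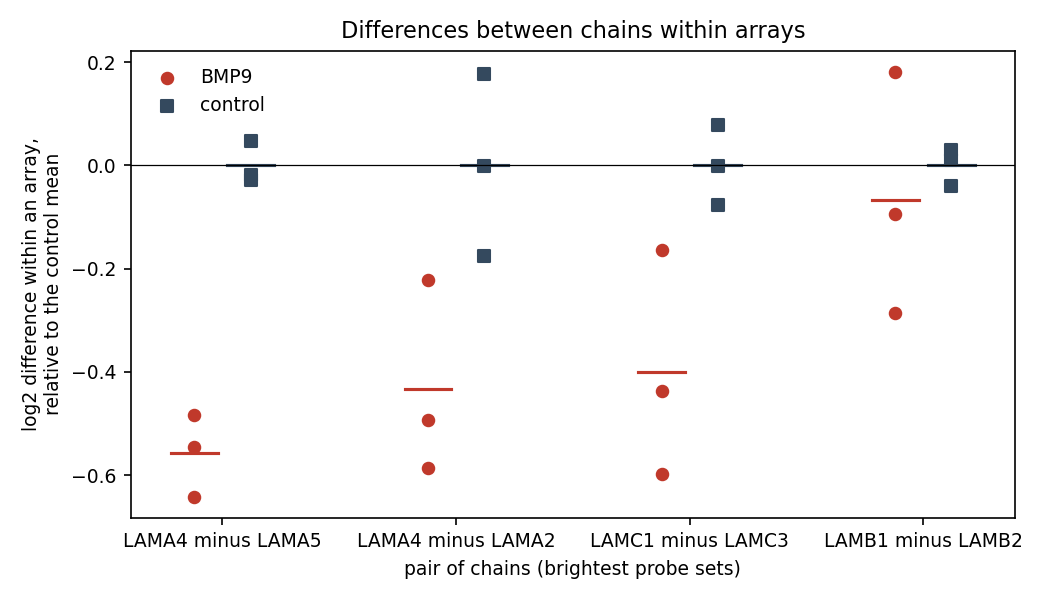
Within-array log2 difference between chains of a class, relative to the control mean of each pair (vertical axis), for the 3 BMP9 arrays (red circles, left) and the 3 control arrays (dark squares, right), with a line at each group's mean. BMP9 arrays lie below all control arrays for LAMA4 minus LAMA5, LAMA4 minus LAMA2 and LAMC1 minus LAMC3, and the groups overlap for LAMB1 minus LAMB2.

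Scaling to control probes shifts all chains together. With hybridisation scaling LAMA4 was at -0.32 (SE 0.099, limma adjusted p = 0.0329) and LAMC1 at -0.23 (adjusted p = 0.0864), while the median of all genes was 0.23. With poly-A scaling LAMA4 was at 0.0030 (SE 0.17) and LAMC1 at 0.089 (SE 0.17), neither of them called, where the median of all genes was 0.55 and 16893 of 18132 genes were called higher. There LAMA2, LAMA5, LAMB1, LAMB2 and LAMC3 were called higher.

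**Figure D4:**
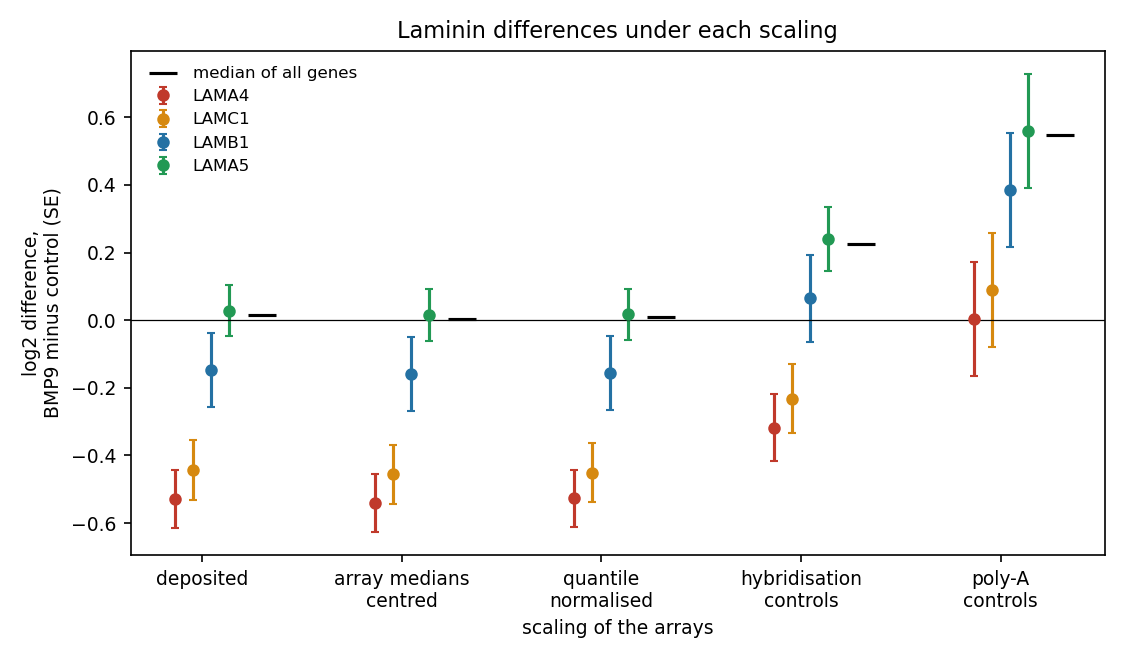
Log2 difference, BMP9 minus control (vertical axis, bars 1 SE), of LAMA4, LAMC1, LAMB1 and LAMA5 on the deposited scale and under 4 other scalings of the arrays; black dashes mark the median of all genes. LAMA4 and LAMC1 lie below that median under all 5, at 0.0030 and 0.089 against 0.55 with poly-A controls. Centring and control-probe scaling shift all genes of an array alike, so a gene's distance from that median cannot change under them.

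Laminin receptors and the enzymes that build dystroglycan's laminin-binding glycan had 22 measured genes of 30 listed. Limma called 0 of them in either direction, against 0.684% of all genes. Of the 22, 2 higher and 2 lower had an unadjusted p under 0.05 (18.2%, against 12.9% of all genes). Their median difference was 0.074, against 0.014 over all genes. SGCB, a sarcoglycan of the dystrophin complex, was at 4.80 ± 0.19 with BMP9 and 5.06 ± 0.084 in control, and SGCE, its epsilon relative, at 9.70 ± 0.050 with BMP9 and 9.88 ± 0.016 in control (SD, n = 3 each; limma adjusted p = 0.316 and 0.320). ITGA1, an integrin chain for collagen and laminin, averaged 2.39 with BMP9 and 2.19 in control, near the dim background probes. It differed by 0.19 and the mannosyltransferase gene POMT1 by 0.21 (limma adjusted p = 0.337 and 0.366). ITGB1, the common beta chain of laminin-binding integrins, differed by 0.021 (95% interval -0.16 to 0.21).

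Basement membrane partners, the proteins laid down with laminin, had 26 measured genes of 26 listed. Limma called 0, against 0.684% of all genes, with 1 higher and 4 lower at an unadjusted p under 0.05 (19.2%, against 12.9% of all genes). The median difference was -0.050, against 0.014 over all genes. COL4A1 and COL4A2, the main collagen IV chains, differed by -0.37 (SE 0.16) and -0.27 (SE 0.10), with limma adjusted p of 0.369 and 0.298. COL4A1 read 3.74, 3.81 and 3.82 with BMP9 and 4.56, 4.17 and 3.76 in control, so its groups overlapped through control replicate 3. COL4A5, a minor collagen IV chain, read 4.61, 4.60 and 4.57 with BMP9 and 4.80, 4.75 and 4.87 in control, without overlap (-0.21, limma adjusted p = 0.249). COL4A3, another minor chain, stood at 2.38 ± 0.015 with BMP9 and 2.20 ± 0.11 in control (SD, n = 3 each), near the dim background probes. PAPLN, which encodes the matrix protein papilin, differed by -0.25 (limma adjusted p = 0.315).

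The netrins and their kin share the laminin N-terminal domain and had 6 measured genes of 7 listed, all of them netrins. Limma called 0, against 0.684% of all genes, and 0 had an unadjusted p under 0.05, against 12.9% of all genes. The differences ran from -0.082 in NTN1 to 0.13 in NTNG2, with NTN3 at 0.066 and NTN5 at 0.055. With poly-A scaling, which shifts every gene upward, 20 of 22 receptor genes, 21 of 26 basement membrane genes and 6 of 6 netrins were called higher. So were 16893 of all 18132 genes.

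**Figure D5:**
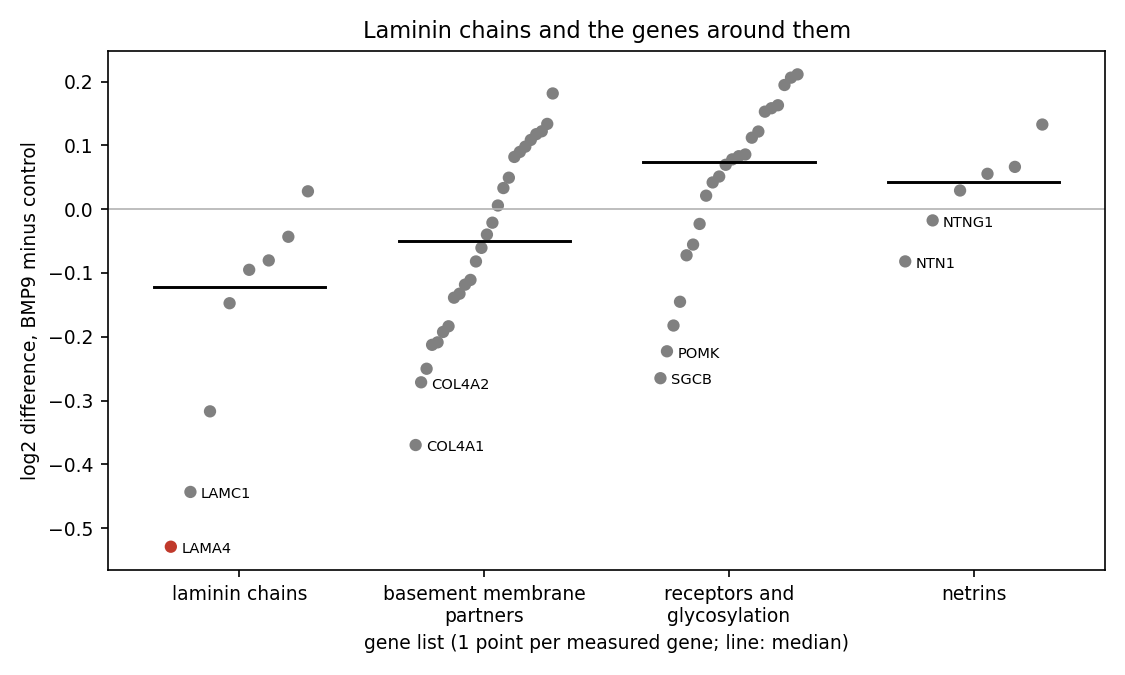
Log2 difference, BMP9 minus control (vertical axis), of each measured gene among the laminin chains and 3 lists of related genes, with a line at each list's median; red marks an adjusted p under 0.05 and the 2 lowest genes of each list are named. LAMA4 at -0.53 and LAMC1 at -0.44 are the lowest points, below COL4A1 at -0.37.

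The genes whose values followed LAMA4 most closely over the 6 arrays, among 3249 genes with a mean log2 value of at least 6, were FLII (Pearson r = 0.996), ZBTB18 (0.996) and VEZF1 (0.995). The r values rest on 6 points in 2 groups and are given as a description. FLII, a gelsolin relative, was at 6.94 ± 0.095 with BMP9 and 7.26 ± 0.031 in control, ZBTB18, a zinc finger repressor, at 6.64 ± 0.17 with BMP9 and 7.56 ± 0.052 in control, and VEZF1, another zinc finger gene, at 6.72 ± 0.24 with BMP9 and 7.56 ± 0.091 in control (SD, n = 3 each). ZBTB18 and VEZF1 were called lower (limma adjusted p = 0.00146 and 0.00919) and FLII was not (0.110).

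Endothelial cells are another source of LAMA4, and 0 of 6 endothelial markers were called (PECAM1, CDH5, VWF, KDR, TEK and CLEC4M). Their summed linear signal was 270.4 to 271.5 on BMP9 arrays and 256.5 to 283.6 on control arrays, so it did not separate the groups. The same sum over the 14 stellate and myofibroblast markers was 3921 to 4073 on BMP9 arrays and 4539 to 4780 on control arrays, without overlap. A linear sum is weighted to the brightest marker, here VIM, with a mean log2 value of 11.25 with BMP9 and 11.62 in control. The median log2 level of the 14 was 5.39 to 5.51 on BMP9 arrays and 5.39 to 5.55 on control arrays. The part of these marker signals in the LAMA4 result was not tested. Among markers of hepatocytes (7), macrophages and leukocytes (6) and cholangiocytes (4) 0 were called as well. Over all genes 0.684% were called, so 0 calls in lists this short say little. PTPRC, the defining leukocyte gene, read 2.13 to 2.55 over the 6 arrays and was the dimmest of its list. The gene means of that list ran from 2.28 to 6.91, the highest in CD68.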

How the data were processed

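The deposited values are log2 expression per probe set that the authors made with RMA, per the submitters' processing notes. The sources used here do not give its software, version or log base, and base 2 was taken from the values' range. Per the labels' protocols, biotin-labelled cRNA was made from total RNA with a 3′ IVT kit and hybridised.

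Of 49395 probe sets, 102 array controls, 1832 with several symbols and 2473 with none were left out, which left 44988 for 18132 genes. BMP9 minus control was fitted in limma 3.58.1 under R 4.3.3, with lmFit, a constant eBayes prior and no covariate, over all probe sets and over the brightest probe set of each gene, with Benjamini-Hochberg adjustment. SE and intervals are limma's moderated ones (95%), while values ± SD come from 3 arrays. The fit was tested on simulated data. Precision is limited by having 3 arrays a group; the median SE over genes was 0.0875. No filter was applied. Figures were drawn with matplotlib 3.10.9.

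The members and lists were chosen with earlier results of these data known. All members are named, with the members of each list that passed or else up to 4 with the smallest p. ITGB1, COL4A1, COL1A1, VIM, LUM, DCN, HAND2, PTPRC and CD68 were named after their values were seen. Alternatives were 16 settings, 1 of them (leaving out only probe sets ending in _s_at or _x_at) chosen after seeing the data.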

Additional observations from a re-analysis of the deposited data

How the results depend on the processing

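Of the 8 chain genes, limma called 2 lower (LAMA4 and LAMC1) with quantile normalisation, centred medians, an intensity trend or a minimum mean of 5 (4 genes left). Lower calls over all genes were, in that order, 98, 98 and 182 of 18132 and 165 of 6744. With poly-A scaling limma called 5 chain genes higher, against 16893 of 18132 over all genes. It called 0 with averaged probe sets or without probe sets ending in _s_at, _x_at or _a_at (4 genes left), where 2 each had an unadjusted p under 0.05. Over all genes it called 87 of 18132 and 17 of 8354 there. With an array left out it called 0 to 1 chain genes, against 54 to 78 of 18132 over all. LAMA4 was -0.14 (adjusted p = 0.367) when averaged, but stayed at -0.53 (adjusted p = 0.0532) without the 3 probe set types. Of the 17 probe sets, limma called 2 lower with the trend or the minimum mean and 12 higher with poly-A scaling. Calls over all probe sets there were 405 of 44988, 426 of 10403 and 41797 of 44988. It called 0 laminin probe sets without the 3 types (7 left, 2 at an unadjusted p under 0.05) and 0 to 1 with an array left out. Over all probe sets it called 17 of 10817 and 81 to 129 of 44988 there. With the replicate number as a block, 0 of 17 probe sets passed (5 at an unadjusted p under 0.05), against 151 of 44988 over all. The LAMA4 gene call held there (limma adjusted p = 0.0370). Deviations of same-numbered arrays correlated at 0.0038, 0.046 and -0.021, within the -0.073 to 0.063 of differently numbered arrays. The labels do not say whether equal numbers mark arrays handled together. Hybridisation and poly-A scaling called 11 and 20 receptor genes, 6 and 21 basement membrane genes and 1 and 6 netrins, all higher. Over all 18132 genes they called 4843 and 16893 higher. Averaging probe sets moved LAMA4 minus LAMA1 to 0.18, minus LAMA2 to -0.042 and minus LAMA5 to -0.10, and LAMC1 minus LAMC3 to -0.16. The cause of each change other than scaling or fewer genes or arrays was not tested.

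Signs turned as follows. With poly-A scaling LAMA1 was 0.22, LAMA2 0.44, LAMA4 0.0030, LAMB1 0.38, LAMB2 0.45, LAMC1 0.089 and LAMC3 0.49, and among further probe sets LAMA4 was 0.51 in 11722282_a_at and 0.51 in 11734705_at, LAMA5 0.44, LAMB1 0.47, and LAMC1 0.50 in 11716051_at, 0.31 in 11716053_a_at and 0.20 in 11716054_at. With hybridisation scaling LAMA2 was 0.12, LAMB1 0.064, LAMB2 0.13 and LAMC3 0.17, and in further probe sets LAMA4 0.19 in 11722282_a_at and 0.19 in 11734705_at, LAMA5 0.12, LAMB1 0.15 and LAMC1 0.18 in 11716051_at. Averaging turned LAMA5 to -0.032. Leaving out an array gave -0.20 to 0.0078 for LAMA2, -0.014 to 0.065 for LAMA5, -0.076 to 0.019 for LAMC3, -0.11 to 0.070 for LAMA4 11734705_at, -0.17 to 0.028 for LAMA5 11762597_x_at, -0.13 to 0.011 for LAMB1 11723487_a_at, -0.13 to 0.028 for LAMC1 11716051_at and -0.061 to 0.16 for LAMC1 11762516_at. Signal over background limits the dim probe sets.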
